A study of Homo sapiens with 16 samples.

Results

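Genes that direct cell lineage in the mammary gland or receive its hormones were followed across the cells of 2 mouse mammary tumor models. These genes were Esr1, Pgr, Prlr, Gata3, Elf5, Foxa1, Sox9, Sox10 and Trp63, 9 of the 32285 genes counted, listed by name with no threshold on their levels but with earlier results of these data known, and all 9 were in the count tables. The tumors, LPA1-T22 (T22) and LPA1-T127 (T127), are syngeneic transplant lines that arose in transgenic mice with the lysophosphatidic acid receptor LPA1 in mammary epithelium. Chunks of tumor were placed in the mammary fat pad of female FVB mice bought at 6 weeks of age, and the mice received vehicle or olaparib, a PARP inhibitor, by mouth at 50 mg/kg daily. The short-term experiments held only T22 tumors (4 pools) or only T127 tumors (4 pools) after 4 and 8 days of treatment, and the long-term experiment (8 pools) held both, each alone or 1 of each in opposite fat pads of a mouse, after 20 days. The tumors in a pool carried multiplexing tags, but no file used here gives the tag of a cell, so treated and untreated cells stand summed in every value and each experiment counts as 1 sample. Both models are lines propagated from their own transgenic tumor, so what is particular to T22 or T127 cannot be told apart from what is particular to that line.

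The mammary epithelium has an outer basal layer, which contracts, and an inner luminal layer, in which hormone-sensing cells and milk-producing progenitors lie side by side. Trp63 (p63) keeps the basal layer, Elf5 drives the alveolar, milk-producing fate downstream of the prolactin receptor Prlr, and Gata3 maintains luminal cells. Foxa1 opens chromatin for the estrogen receptor (Esr1), which in turn induces the progesterone receptor (Pgr), while Sox9 and Sox10 are linked with progenitor and plastic states.

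The 16 pools held 53946 cells, and 34755906 to 55600377 UMIs (unique molecular identifiers, each standing for a captured mRNA) per pool. Long-term pools 1 and 2 had medians of 3812 and 3105 UMIs per cell and shared 3939 cell barcodes, and pool 3 shared 987 and 1082 barcodes with them. Only the deepest copy of a shared barcode was kept, leaving 48824 cells. A level is the UMIs of a gene summed over the cells of a deposited label, in counts per 1000000 UMIs (CPM), with an exact Poisson 95% interval that covers counting error only, and the range over pools beside it. The study assigns the labels Malign_0 and Malign_1 to T127 and Malign_2 and Malign_3 to T22. In that order the labels held 2809, 1794, 1352 and 907 long-term cells. Epcam, a marker of epithelial cells, was at 3.30 and 5.87 CPM in Malign_0 and Malign_1 against 922 and 2780 CPM in Malign_2 and Malign_3, whereas the keratin Krt8 was at 735, 480, 229 and 2000 CPM in that order. Of the fibroblast markers, Dcn was at 4305, 4324, 772 and 55.4 CPM in that order against 6123 CPM in cancer-associated fibroblasts, whereas Col1a1 was at 3.61 to 10.8 CPM and Pdgfrb at 0.190 to 3.72 CPM in the 4 labels against 5235 and 137 CPM in those fibroblasts. The leukocyte marker Ptprc was at 3.21 to 8.87 CPM in the 4 labels against 487 CPM in the 15 immune labels together. Because the labels were made from the expression of these cells, differences between labels are given as sizes, with no test. Levels are not compared between genes, since reads were counted at the 3′ end with introns and no scale per length applies.

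By a 4-fold rule for genes with at least 5 CPM, the models differed in 5 of the 9 genes in the long-term pools. Sox10, Trp63, Elf5 and Prlr were higher in the T22 labels, and Gata3 in the T127 labels. In the long-term pools 6 of the 9 genes reached 5 CPM in either model, and 5 of these 6 differed 4-fold or more after adding 1 CPM to both sides, 4 of them higher in T22 and 1 in T127. Over all 10030 genes with 5 CPM, 18.5% differed that much. In the short-term experiments 4 of 5 genes did, against 20.6% of all genes, and Elf5 stayed under 5 CPM when the T22 labels were summed. The sum weights labels by their UMIs, and with the mean CPM of both labels Elf5 passed 4-fold there (log2 ratio 3.77). Sox9 differed less, at 312 CPM in T22 and 599 CPM in T127 in the long-term pools. Esr1, Pgr and Foxa1 were under 5 CPM and do not enter these counts. Sox10, Trp63, Elf5 and Prlr passed 5 CPM only through the T22 side, so that the filter fixes their direction, and these counts are a description. For the long-term pools, the T22 and T127 ranges did not overlap for 6 of 6 genes (63.9% of all genes), and for the short-term pools for 5 of 5 (86.4%).

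**Figure D1:**
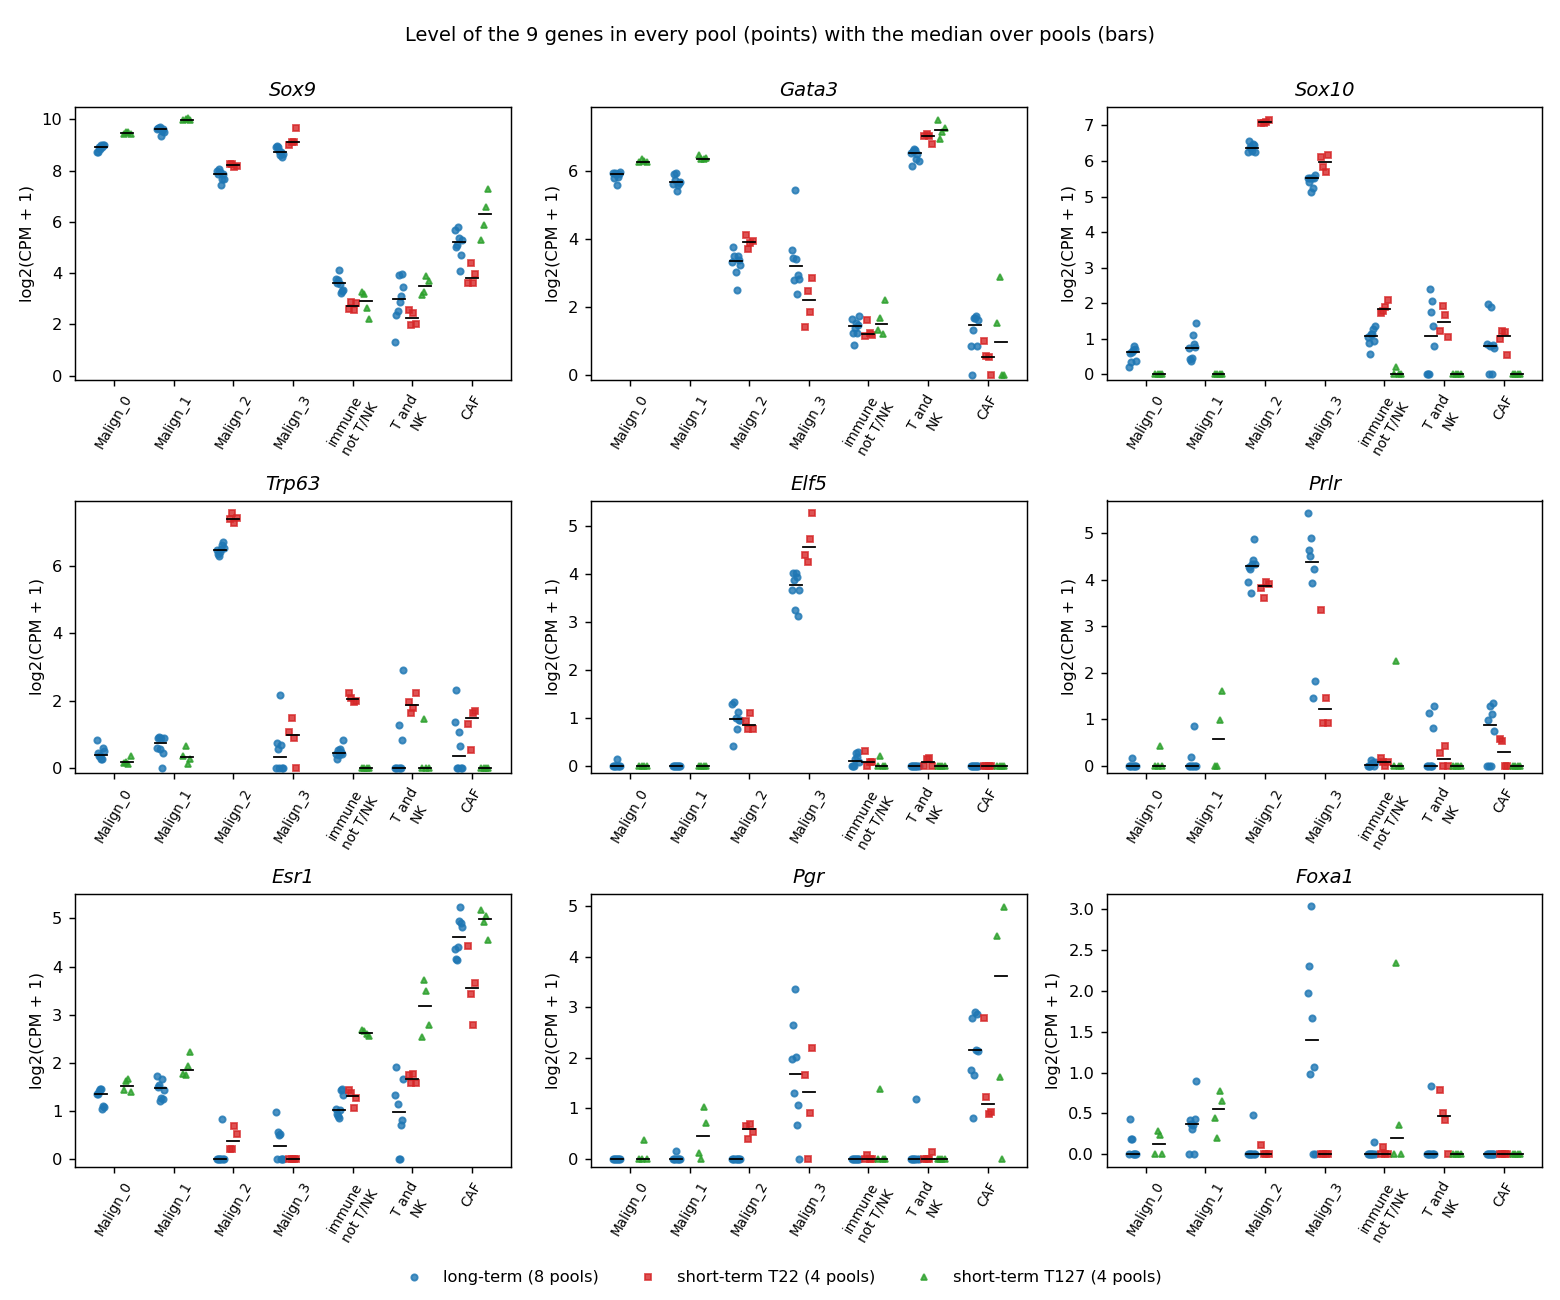
Level of each of the 9 genes, as log2(CPM + 1), in every pool (points) with the median over pools (bars), by malignant label, immune cells without T and NK cells, T and NK cells, and cancer-associated fibroblasts (CAF). Sox9 stood above the immune cells and the CAF in all 4 malignant labels, Sox10 was raised in Malign_2 and Malign_3 alone among these groups, Trp63 in Malign_2 alone, and Gata3 in T and NK cells as well as in Malign_0 and Malign_1.

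Sox9, a transcription factor of progenitor cells in many epithelia, was found in all malignant labels. Its long-term levels were 428, 485 and 516 CPM in Malign_0 (lowest, median and highest pool), 660, 781 and 826 CPM in Malign_1, 171, 231 and 268 CPM in Malign_2 and 365, 428 and 498 CPM in Malign_3. Malign_1 lay above the other 3 labels and Malign_2 below them in every pool, while the pool ranges of Malign_0 and Malign_3 overlapped. In the short-term T127 pools Sox9 was at 688, 727, 722 and 687 CPM in Malign_0 and at 993, 1029, 1055 and 999 CPM in Malign_1. In the short-term T22 pools it was at 306, 306, 281 and 290 CPM in Malign_2 and at 508, 548, 557 and 808 CPM in Malign_3. The order within each model was thus the same in both experiments. Malign_1 exceeded Malign_0 by 1.63 times (95% interval 1.60 to 1.65) in the long-term and 1.44 times (1.43 to 1.46) in the short-term pools, and Malign_3 exceeded Malign_2 by 1.89 and 1.99 times. Immune cells held 8.35 to 16.3 CPM of Sox9 over the long-term pools and CAF 36.0 CPM in sum, far below the malignant labels. Thinned to 3000 UMIs per cell, 69.0%, 78.3%, 43.3% and 65.6% of the cells of Malign_0, Malign_1, Malign_2 and Malign_3 had a Sox9 UMI, and 1.75% of immune cells other than T and NK cells did. The unthinned shares were 97.7%, 98.6%, 87.1% and 96.3%, at median depths of 15056 to 20459.5 UMIs per malignant cell and 9652 per immune cell other than T and NK cells.

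Sox10, a relative of Sox9 best known from the neural crest and also found in mammary progenitors, divided the models. Long-term Malign_2 held 75.0, 82.2 and 93.6 CPM (lowest, median and highest pool) and Malign_3 33.9, 44.7 and 47.4 CPM, so the 2 T22 labels did not overlap. Long-term Malign_0 and Malign_1 held at most 0.741 and 1.73 CPM in a pool. In the short-term T22 pools Sox10 was at 134, 134, 136 and 142 CPM in Malign_2 and at 68.0, 55.7, 50.5 and 71.0 CPM in Malign_3. Malign_2 thus exceeded Malign_3 by 1.94 times (95% interval 1.78 to 2.12) in the long-term and 2.20 times (1.96 to 2.46) in the short-term pools. The short-term T127 cells had no Sox10 UMI in either malignant label, which makes the T22 level at least 7576-fold higher when the T127 side is set to 3 UMIs over both labels. In the long-term pools, which held T22 and T127 tumors together, Malign_0 and Malign_1 had 54 Sox10 UMIs and the T22 labels were 123 times higher (93.9 to 164). The immune cells of those pools held 1.13 CPM of Sox10, those of the short-term T22 pools 2.37 CPM and those of the short-term T127 pools 0.0333 CPM, a single UMI from the cell labelled B.cells that is described with the receptor genes. Sox10 outside the T22 labels was seen, but for that UMI, only where T22 cells were in the pool, and the part of free RNA in this was not tested.

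Trp63, the factor that maintains basal cells, marked Malign_2. It was at 76.4, 88.0 and 103 CPM in Malign_2 in the long-term pools (lowest, median and highest) and at 0, 0.243 and 3.47 CPM in Malign_3. In the 4 short-term pools Malign_2 was at 166, 187, 153 and 169 CPM and Malign_3 at 1.08, 1.80, 0.871 and 0 CPM. The labels did not overlap in either experiment. Malign_2 exceeded Malign_3 by 125 times (95% interval 69.7 to 251) in the long-term pools, on 2050 against 11 UMIs, and by 177 times (76.0 to 546) in the short-term pools. Of the 11 long-term UMIs in Malign_3, 8 lay in pool 5 and 6 in a single cell. Between the models, the T22 labels were 114 times higher (85.3 to 157) in the long-term and 725 times higher (525 to 1030) in the short-term experiments. The summed long-term Malign_3 value was near that of immune cells (0.697 and 0.458 CPM). In the short-term T22 pools Malign_3 lay below the immune cells (0.954 against 3.05 CPM). Malign_0 and Malign_1 held 0.362 and 0.607 CPM in the long-term pools and 0.149 and 0.281 CPM in the short-term T127 pools, where immune cells held 0.0333 CPM.

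Elf5, the driver of alveolar luminal cells, was by contrast highest in Malign_3. Its level there was 7.73, 12.7 and 15.2 CPM in the long-term pools (lowest, median and highest) and 20.0, 18.0, 25.3 and 37.3 CPM in the 4 short-term pools. Malign_2 reached at most 1.51 CPM in a long-term and 1.13 CPM in a short-term pool. Malign_3 exceeded Malign_2 by 11.9 times in the long-term pools and by 28.4 times in the short-term pools, without overlap of pools. Malign_0 and Malign_1 together held 1 Elf5 UMI in the long-term pools and none in the short-term T127 pools, while immune cells held 0.0917 CPM in the long-term pools. In Malign_3, 131 of 907 long-term cells and 54 of 218 short-term cells had an Elf5 UMI, and the 10 long-term cells with the most Elf5 held 17.8% of its UMIs.

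Gata3, the factor that maintains luminal cells and also acts in T cells, ran the other way. It was at 47.0, 58.7 and 61.2 CPM in long-term Malign_0 (lowest, median and highest pool) and at 41.1, 49.6 and 59.7 CPM in Malign_1, which overlapped. Long-term Malign_2 held 4.60, 9.08 and 12.5 CPM and Malign_3 4.12, 8.08 and 42.4 CPM. The short-term T127 pools held 74.9, 80.1, 76.5 and 76.0 CPM in Malign_0 and 86.6, 80.7, 80.0 and 81.6 CPM in Malign_1, and the short-term T22 pools held 16.1, 12.0, 13.7 and 14.3 CPM in Malign_2 and 1.62, 4.49, 2.61 and 6.21 CPM in Malign_3. Every T22 value lay below every T127 value but that of Malign_3 in long-term pool 4, which passed the lowest Malign_1 pool. The T127 labels together were 5.23 times higher than the T22 labels in the long-term and 6.13 times higher in the short-term pools, and 8.15 times higher in the long-term pools without 13 Malign_3 cells described with the receptor genes. Thinned to 3000 UMIs, 17.2% and 14.0% of long-term Malign_0 and Malign_1 cells had a Gata3 UMI, against 3.33% and 1.98% of Malign_2 and Malign_3 cells and 0.408% of immune cells other than T and NK cells (unthinned 62.3%, 59.9%, 13.2% and 6.17% of the malignant labels). Immune cells as a whole are no background for Gata3. T and NK cells held 86.7 CPM in the long-term, 125 CPM in the short-term T22 and 149 CPM in the short-term T127 pools, and the label CD4_Treg-FOXP3 held 254 CPM (95% interval 210 to 305) in the long-term pools, the highest of the 22 labels there.

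**Figure D2:**
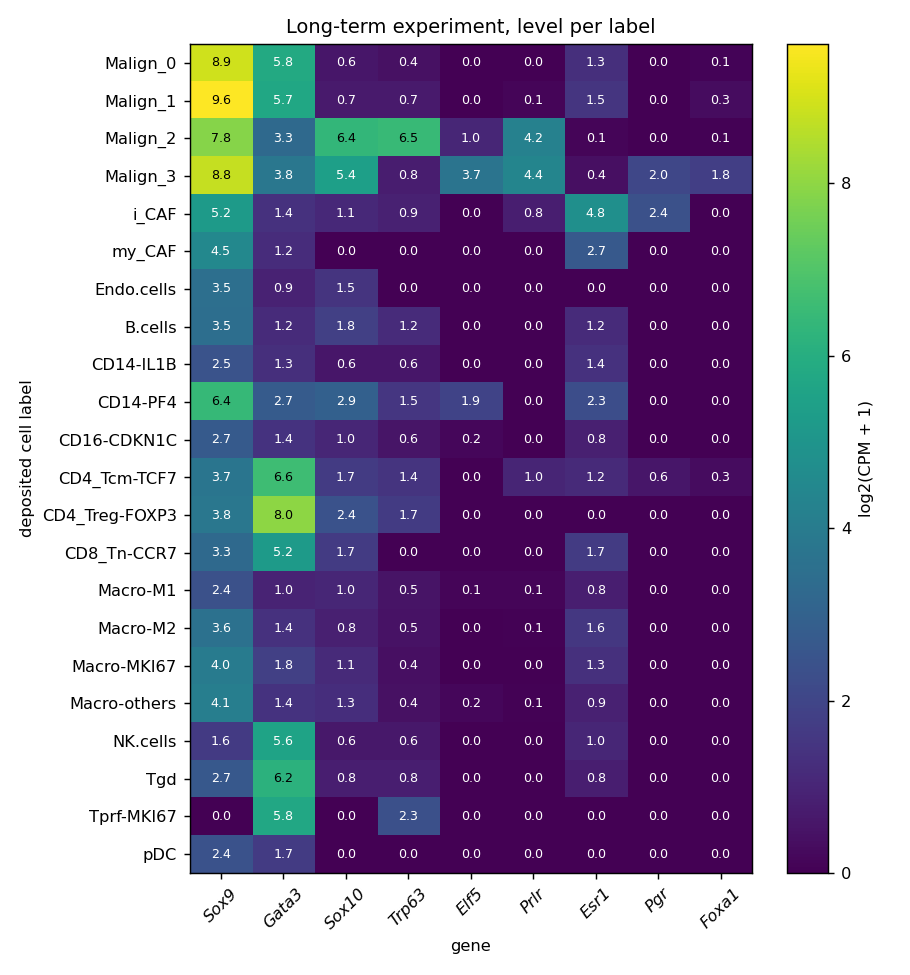
Level of the 9 genes as log2(CPM + 1) in the 22 deposited labels of the long-term experiment, with the value printed in each field. The highest value lay in Malign_1 for Sox9, in Malign_2 for Sox10 and Trp63, in Malign_3 for Elf5, Prlr and Foxa1, in CD4_Treg-FOXP3 for Gata3 and in i_CAF for Esr1 and Pgr. For Prlr the intervals of Malign_3 (17.4 to 21.8 CPM) and Malign_2 (16.2 to 19.7 CPM) overlapped, and 13 of the 907 Malign_3 cells held 250 of its 308 Prlr and all 38 Foxa1 UMIs. The Pgr intervals of i_CAF (3.02 to 5.58 CPM) and Malign_3 (2.30 to 4.10 CPM) overlapped as well.

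Of the hormone receptors Esr1, Pgr and Prlr, the prolactin receptor Prlr was the only one above 5 CPM in a malignant label, and it was higher in the T22 than in the T127 labels by 372 times (95% interval 159 to 1148) in the long-term and 31.7 times (24.6 to 41.3) in the short-term experiments. All Prlr UMIs of the short-term T127 malignant labels, 60 in Malign_1 and 8 in Malign_0, lay in 5 cells chosen by their receptor genes (described further on). Without such cells the ratio was 245 (104 to 759) in the long-term pools, and no Prlr UMI was left on the short-term T127 side, which gives at least 717-fold when 3 UMIs over both labels are allowed, values that the choice of the cells by Prlr in part fixes. Long-term Malign_2 held 12.0, 18.7 and 28.4 CPM of Prlr (lowest, median and highest pool), and Malign_3 held 1.77, 19.8 and 42.0 CPM, a much wider range. In the short-term T22 pools Malign_2 held 13.1, 11.1, 14.5 and 14.1 CPM and Malign_3 9.17, 0.898, 1.74 and 0.887 CPM. The labels overlapped in the long-term pools and did not in the short-term pools, where Malign_2 was 3.28 times higher (2.13 to 5.34). Short-term pool 1 held 17 of the 21 Malign_3 UMIs, and without it the log2 ratio of Malign_2 to Malign_3 was 2.70, past 4-fold. As the mean of the log2 ratios within each pool it was 2.16, also past 4-fold. Malign_0 and Malign_1 held 5 Prlr UMIs in all in the long-term pools. In Malign_2 the gene was spread thinly, with UMIs in 315 of 1352 long-term cells and at most 6 UMIs in a cell. In Malign_3 only 60 of 907 cells had a UMI but a cell reached 44 UMIs.

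Esr1, the estrogen receptor, was under 5 CPM in every malignant label. It was at 1.06, 1.56 and 1.75 CPM in long-term Malign_0 (lowest, median and highest pool), at 1.32, 1.79 and 2.32 CPM in Malign_1 and at no more than 0.781 and 0.976 CPM in any pool of Malign_2 and Malign_3, while immune cells held 0.789, 1.04 and 1.68 CPM, a range that overlapped those of Malign_0 and Malign_1. In the short-term T127 pools Malign_0 and Malign_1 were at 1.89 and 2.80 CPM, below the 5.42 CPM of the immune cells there, and in the short-term T22 pools Malign_2 held 16 Esr1 UMIs and Malign_3 none. The T127 labels were thus 8.85 times higher than the T22 labels in the long-term and 7.66 times higher in the short-term pools, but at levels near those of immune cells. In the long-term pools 5 of the 7 T22 Esr1 UMIs lay in 13 Malign_3 cells chosen by their receptor genes. Without these the ratio was 30.9 (8.40 to 257) on 2 T22 UMIs, a value that the choice of the cells by Esr1 in part fixes. The highest level lay outside the tumor cells. The fibroblast label i_CAF held 26.8 CPM of Esr1 in the long-term pools, 12.4 CPM in the short-term T22 pools and 30.6 CPM in the short-term T127 pools, and was the highest of the long-term labels without an overlap of its interval (23.8 to 30.1) with that of my_CAF, the next (1.47 to 13.8).

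Pgr, whose transcription the estrogen receptor drives, and the pioneer factor Foxa1 were also found at low levels. Pgr was at 0, 2.19 and 9.33 CPM in long-term Malign_3 (lowest, median and highest pool) and had no UMI in Malign_0 and Malign_2 and 1 in Malign_1, an upper limit of 0.0494 CPM for Malign_0 and 0.128 CPM for Malign_2 if 3 UMIs are allowed. In the short-term pools it was at 0.576, 0.317, 0.609 and 0.437 CPM in Malign_2 and at 2.16, 0, 0.871 and 3.55 CPM in Malign_3, with 23 and 9 UMIs, while short-term Malign_0 had 7 Pgr UMIs in 1 cell and Malign_1 36 in 7 cells. The fibroblast label i_CAF held 4.15, 2.26 and 14.0 CPM of Pgr in the long-term, short-term T22 and short-term T127 pools. Foxa1 was at 0, 1.64 and 7.21 CPM in long-term Malign_3 and at no more than 0.865 CPM in any pool of the other malignant labels, and short-term Malign_3 had no Foxa1 UMI. Immune cells held 0.0131 CPM of Pgr and 0.0196 CPM of Foxa1 in the long-term pools. Both genes were below 5 CPM in every malignant label.

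In the long-term pools the receptor signal of Malign_3 came from few cells. A total of 19 cells had UMIs of at least 3 of the 4 genes Esr1, Pgr, Prlr and Foxa1, a rule set after the values had been seen, and 13 of them were among the 907 long-term Malign_3 cells (1.43%), spread over 6 of the 8 pools. These 13 cells, with a median of 11816 UMIs, held 250 of the 308 Prlr UMIs of the label, 44 of 49 Pgr UMIs, all 38 Foxa1 UMIs and all 5 Esr1 UMIs, which the rule in part fixes. Outside the rule, they held 149 of its 204 Gata3 UMIs (854 CPM against 3.52 CPM in the other 894 cells). Cited1, a coactivator found in hormone-sensing cells and named here after its values were seen, was at 2969 CPM in the 13 cells and 1.09 CPM in the rest, and Areg, an estrogen-induced growth factor, at 4408 and 9.93 CPM, unevenly, with 198, 247 and 187 Areg UMIs in 3 of the 13 cells and none in 2. The keratin Krt18 was at 13143 and 2909 CPM, Epcam at 4643 and 2759 CPM and Wnt4, a target of progesterone, at 608 and 18.6 CPM. Other genes were lower in the 13 cells. Sox9 was at 218 CPM against 436 CPM, Sox10 at 5.73 CPM (1 UMI) against 42.8 CPM and Krt14 at 11.5 against 938 CPM, and Kit, a receptor of luminal progenitors, had no UMI there against 174 CPM in the rest. Csn3, a milk protein gene also listed with luminal progenitors, was higher in the 13 cells, at 825 CPM against 89.3 CPM. Of its 144 UMIs there, 138 lay in 1 cell. Tnfsf11, listed with hormone-sensing genes, had no UMI in the 13 cells or the rest. Elf5 was at 11.5 CPM (2 UMIs) in the 13 cells and 12.1 CPM in the rest. Trp63 had no UMI in the 13 cells and was at 0.705 CPM in the rest, too low for a difference to be seen in so few cells. Short-term Malign_3, with 218 cells, had no such cell (upper 95% limit 1.68%), beside an interval of 0.765% to 2.44% for the long-term share. These intervals take cells as independent, and each experiment counts as 1 sample, so no difference between the experiments is read from them. The receptor UMIs of short-term Malign_3 were spread thinly, its 9 Pgr UMIs over 7 cells and its 21 Prlr UMIs over 19 cells.

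The other 6 of the 19 cells lay in the short-term T127 pools, 4 labelled Malign_1, 1 labelled Malign_0 and 1 labelled B.cells. All 19 cells had Epcam (7 to 85 UMIs), Gata3 (3 to 29 UMIs) and Cited1 (3 UMIs or more), and none had a Ptprc or Trp63 UMI. The 4 in Malign_1 held all 60 Prlr UMIs of the label, 33 of its 36 Pgr UMIs and 133 of its 167 Epcam UMIs. The cell labelled B.cells had 32518 UMIs against a median of 2075 in the other 41, no UMI of the B cell gene Cd79a and 85 Epcam UMIs, and held all of the 26 Prlr, 11 Pgr, 25 Foxa1 and 7 Esr1 UMIs of that label. In the deposited labels the 19 cells stand under 4 different names. The pools of these 6 held only T127 tumors. No file used here gives the single tumor of any of the 19, or the model of the 13 long-term cells apart from their label.

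Without these 19 cells Gata3 lay closer together between the experiments in Malign_3. The rule did not use Gata3, but it was set after the values had been seen. The 13 cells held 149 of the 204 Gata3 UMIs of long-term Malign_3, so a fall followed from leaving them out. Gata3 in long-term Malign_3 was then 1.31, 3.63 and 6.05 CPM (lowest, median and highest pool), and pool 4, which held 5 of the 13 cells, fell from 42.4 to 4.82 CPM. Its summed level turned from 1.46 times higher in Malign_3 than in Malign_2 to 2.51 times higher in Malign_2 (1.86 to 3.44), beside 4.08 times (2.56 to 6.92) in the short-term pools, where no T22 cell was left out. With all cells kept, Gata3 was already higher in Malign_2 in 5 of the 8 long-term pools. The long-term pool ranges of the 2 labels overlapped with and without the 13 cells. Prlr had to fall in long-term Malign_3, since the rule used it, and was at 1.77, 3.26 and 6.02 CPM there without them, with the ratio of Malign_2 to Malign_3 going from 0.917 to 4.82. With Prlr added, the genes 4-fold apart between Malign_2 and Malign_3 went from 2 to 3 of 6 and those without pool overlap from 4 to 5 of 6 (8.45% and 30.6% of all genes), from which nothing is read, since the cells were chosen by Prlr. Pgr, also used by the rule, fell from 3.10 to 0.320 CPM in long-term Malign_3, below the 1.72 CPM of short-term Malign_3. The levels of Elf5, Sox9, Sox10 and Trp63 moved by little, Sox10 in long-term Malign_3 from 42.4 to 42.8 CPM.

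**Figure D3:**
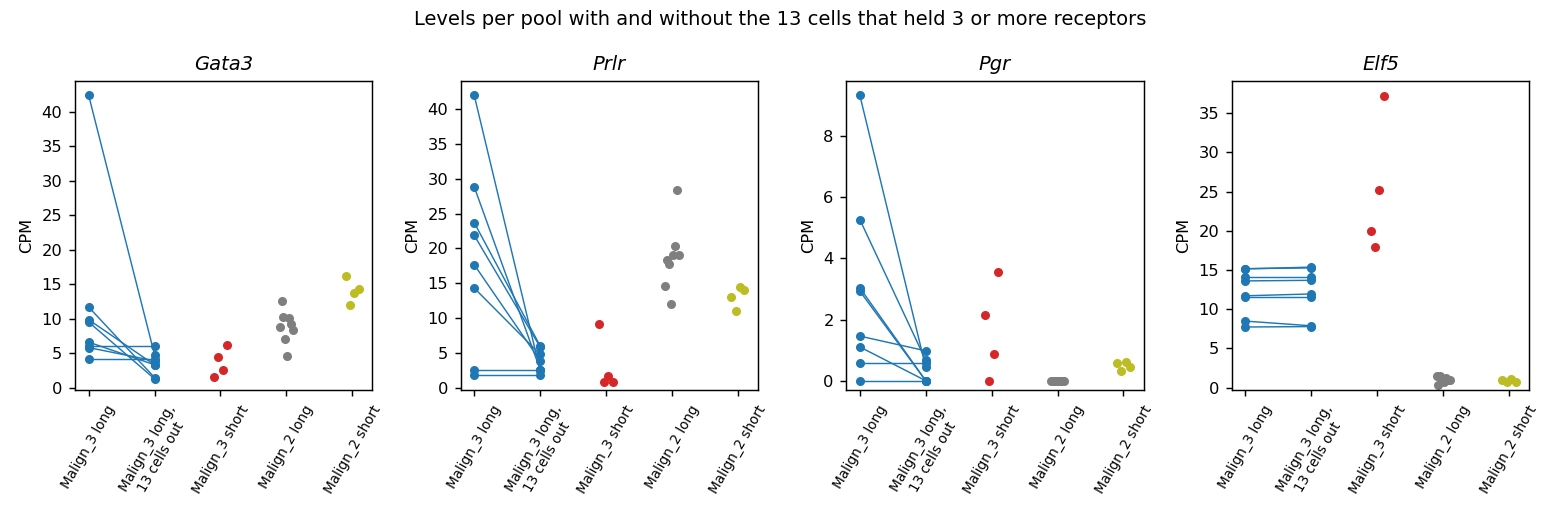
Level (CPM) of Gata3, Prlr, Pgr and Elf5 per pool (points) in Malign_3 of the long-term experiment with all cells and without the 13 cells that held 3 or more of the 4 receptor genes (lines join the same pool), in Malign_3 of the short-term experiment, and in Malign_2 of both. Gata3, Prlr and Pgr fell to 1.31 to 6.05, 1.77 to 6.02 and 0 to 0.978 CPM, while Elf5 moved by little. For Prlr and Pgr the rule in part fixes the fall.

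Within the T22 model, Trp63 and Elf5 were the 2 of 6 genes that differed 4-fold or more in the long-term pools, 1 in each direction (8.46% of all genes did), and also the 2 of 6 in the short-term pools (10.1%). Both passed 5 CPM only through the label where they were high, so that the filter fixes their direction, and the count is a description. Without short-term pool 4, Gata3 also passed 4-fold (log2 ratio 2.02). The pools did not overlap for 4 of 6 and 6 of 6 genes (30.7% and 52.8% of all genes). Within T127, neither of the 2 genes with 5 CPM, Sox9 and Gata3, differed 4-fold between Malign_1 and Malign_0 in either experiment, a count near that of all genes (0.409% and 0.395%), and the pools did not overlap for 1 of the 2, Sox9 (8.83% and 39.6% of all genes). The ratio of Malign_1 to Malign_0 for Gata3 was 0.926 (0.876 to 0.978) in the long-term and 1.07 (1.04 to 1.11) in the short-term pools, with overlapping pools in both.

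**Figure D4:**
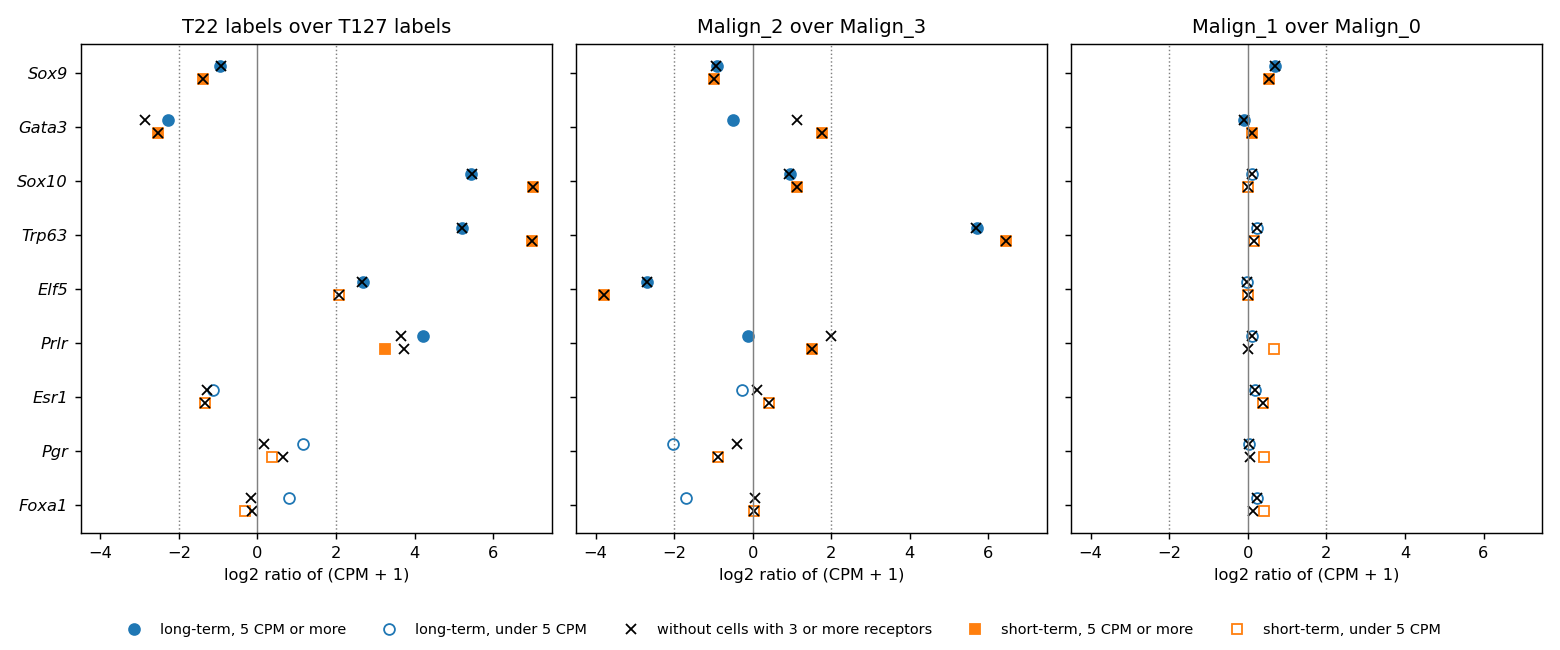
Log2 ratio of (CPM + 1) for the 9 genes between the T22 and T127 labels, Malign_2 and Malign_3, and Malign_1 and Malign_0, in the long-term (circles) and short-term (squares) experiments, filled where either side reached 5 CPM. Crosses give the ratio without the cells that held 3 or more of the 4 receptor genes, and dotted lines mark 4-fold. Trp63 lay at 5.70 and 6.44 and Elf5 at -2.70 and -3.77 between Malign_2 and Malign_3. Of the genes with 5 CPM, Gata3 and Prlr changed side there with the cells left out, in the long-term experiment only. Prlr went from -0.12 to 2.00, which the choice of the cells by Prlr in part fixes.

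Sox9, Sox10 and Trp63 occurred together in Malign_2 cells as often as their shares predict. With cells thinned to 3000 UMIs, 69 of 1352 long-term cells had both Sox10 and Trp63, where 68.9 would be found if the genes were independent within each pool, and 229 of 1736 short-term cells did, where 216 would be. Sox9 with Trp63 was seen in 136 cells against 132, and Sox9 with Sox10 in 136 against 132. Cells with both Sox10 and Trp63 were therefore found, with neither a clear excess nor a clear lack of them at this depth. Gata3 and Sox10 shared 6 cells against 10.2 in the long-term and 18 against 24.7 in the short-term pools. At 6000 UMIs these were 24 against 26.4 and 74 against 67.1, close to the number from independence. In Malign_3, Elf5 and Sox9 shared 28 cells against 26.1.

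Between the short-term and long-term experiments the median level over genes was shifted. The median log2 ratio (short over long) over all genes with 5 CPM was 0.38, 0.36, 0.34 and 0.33 in Malign_0, Malign_1, Malign_2 and Malign_3. Sox9 was 0.37 to 0.55 higher in log2 in the short-term pools in all 4 labels, which left 0.03 to 0.18 relative to that median. Its pools did not overlap between experiments in any label, as was true with the short-term pools higher for 52.9%, 47.0%, 43.4% and 29.5% of all genes in the 4 labels. Relative to the same median, Trp63 was 0.61 and Sox10 0.39 higher in short-term Malign_2, and Elf5 0.62 higher in short-term Malign_3. Gata3 in Malign_3 went the other way, from 12.9 CPM in the long-term to 3.43 CPM in the short-term pools (-1.99 on that scale, with overlapping pools), beside 3.52 CPM in the long-term pools without the 13 cells. Prlr in Malign_2 stood at -0.76, with overlapping pools. The single 4-fold difference, where 0.753%, 1.16%, 0.659% and 1.12% of all genes in the 4 labels differed so, was Prlr in Malign_3, 4.01 CPM in the short-term against 19.5 CPM in the long-term pools and 3.72 CPM there without the 13 cells, with overlapping pools. Time on treatment, transplant setting, depth (medians of 21180.5 to 36205 UMIs per malignant cell by label in the short-term and 15056 to 20459.5 in the long-term pools) and experiment cannot be told apart here.

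The genes most like each of them over the 22 long-term labels, by Pearson's r of log2(CPM + 1) among 11871 genes, were given only as a description, since the labels share pools and unequal depths. Sox10 was most like Krt17 (r = 0.959), a basal keratin at 140 CPM in Malign_2 and 84.8 CPM in Malign_3, followed by Apoc1 and Tspan8. Trp63 was most like the transcript Frmpd1os (r = 0.904), at 89.7 CPM in Malign_2 and at most 1.39 CPM in the other malignant labels. Elf5 was most like Bbox1, Agr2 and Gabrp (r = 0.992, 0.990 and 0.986), of which Gabrp, a GABA receptor subunit, was at 51.4 CPM in Malign_3 and 0.893 CPM in Malign_2. Prlr was most like Ripk4 (r = 0.982), a kinase of epidermal differentiation, at 20.9 CPM in Malign_2 and 13.2 CPM in Malign_3. The 13 Malign_3 cells chosen by their receptor genes were kept here. Without them that label held 3.72 CPM of Prlr and 3.52 CPM of Gata3, against 19.5 and 12.9 CPM with them. Sox9 was most like Irx1 and Irx2 (r = 0.948 and 0.945), homeobox factors present in all 4 malignant labels, and Gata3 was most like Podnl1 (r = 0.938), at 11.4 and 10.9 CPM in Malign_0 and Malign_1.

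The same comparisons were made for 7 lists of related genes, of which Csn3 and Oxtr each stand in 2. Where a gene passed 5 CPM only through its higher side, as Krt5, Cnn1 and Mylk did between Malign_2 and Malign_3, the filter fixes its direction, so the counts of the lists are descriptions. Between Malign_1 and Malign_0 no gene of the 7 lists differed 4-fold in either experiment, a count near the 0.409% and 0.395% of all genes. Of 12 basal genes, 10 of the 11 with 5 CPM were 4-fold or more higher in the T22 than in the T127 labels of the long-term pools and 12 of 12 in the short-term experiments (11.3% and 11.9% of all genes were, in that direction). Between the T22 labels, 10 of 12 were higher in Malign_2 in both experiments (4.51% and 5.49%). Krt5, a keratin of basal cells, was at 916 CPM in Malign_2 and 3.10 CPM in Malign_3, and Acta2, smooth muscle actin, at 7275 and 22.7 CPM. Krt14, another basal keratin, was not among them, at 1734 and 927 CPM. Cnn1 and Mylk, of the contractile apparatus, were at 328 and 170 CPM in Malign_2 and at 2.15 and 0.824 CPM in Malign_3.

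Of 8 luminal progenitor genes, 6 of 7 with 5 CPM were 4-fold higher in T22 than in T127 in the long-term pools and 5 of 6 in the short-term experiments (11.3% and 11.9% of all genes). Of the 8, 4 were higher in Malign_3 and 1 in Malign_2 in the long-term pools, and 5 and 1 in the short-term pools (3.95% and 4.63% of all genes were higher in Malign_3). Kit, a receptor tyrosine kinase, was at 172 CPM in Malign_3 and 2.68 CPM in Malign_2, and Ltf, lactotransferrin, at 161 and 5.06 CPM. The exception was Csn3, the milk protein kappa-casein, at 606 CPM in Malign_2 and 97.4 CPM in Malign_3. Ehf, an epithelial ETS factor, and Lcn2, lipocalin, were high in both T22 labels (564 and 1257 CPM, and 1238 and 796 CPM).

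The prolactin receptor pathway and milk genes held 4 of 8 genes higher in T22 in the long-term and 3 of 7 in the short-term experiments (11.3% and 11.9% of all genes), and none higher in T127 (7.25% and 8.69%). Between the T22 labels, 2 of 7 were higher in Malign_2 in the long-term and 3 of 8 in the short-term pools (4.51% and 5.49% of all genes), and none in Malign_3 (3.95% and 4.63%). Of the caseins, Csn2 was at 75.5 CPM in Malign_2 and 6.34 CPM in Malign_3 in the long-term pools and at 10.1 and 0.382 CPM in the short-term pools, and Csn3 was at 490 and 24.6 CPM there, so both caseins were higher in the label with the lower Elf5 level. Cish, a feedback inhibitor of cytokine receptors, was at 7.99 and 19.5 CPM. Jak2 and Socs2, the kinase and a feedback inhibitor of the receptor, were at 8.42 to 12.5 CPM in all 4 long-term labels.

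Among 11 other hormone and nuclear receptors, Thra, a thyroid hormone receptor, was at 77.8 and 69.6 CPM in Malign_0 and Malign_1 against 14.4 and 15.5 CPM in Malign_2 and Malign_3. It was the 1 of 7 genes with 5 CPM higher in T127 in the long-term pools, with none higher in T22 (7.25% of all genes were higher in T127). In the short-term experiments 2 of 9 were higher in T22 and none in T127 (11.9% and 8.69%). Between the T22 labels, 2 of 9 were higher in Malign_2 in both experiments (4.51% and 5.49%), Ghr and Oxtr, the oxytocin receptor. Vdr, the vitamin D receptor, was at 48.7 and 49.0 CPM in Malign_0 and Malign_1 and at 18.7 and 15.6 CPM in Malign_2 and Malign_3 in the long-term pools. Ghr, the growth hormone receptor, was at 89.3 CPM in Malign_2 and 14.0 CPM in Malign_3, and Nr3c1, the glucocorticoid receptor, at 53.3 to 134 CPM in the 4 labels. None of the 7 estrogen receptor cofactors differed 4-fold in any of the 3 comparisons, where 18.5% and 20.6% of all genes did between the models, 8.46% and 10.1% between the T22 labels and 0.409% and 0.395% between the T127 labels, and nothing is read from so short a list. Among them was Ncor1, at 164 to 203 CPM in the 4 long-term labels.

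Of 13 hormone-sensing and target genes, 3 of 8 were higher in T22 and 1 in T127 in the long-term pools, and 2 and 1 of 7 in the short-term experiments. The shares of all genes were 11.3% and 7.25% in the long-term and 11.9% and 8.69% in the short-term experiments, the count in T127 being near its share. Between the T22 labels, 2 of 8, Areg and Ccnd1, were higher in Malign_3 in the long-term pools (3.95% of all genes), and 1 of 6 in each direction in the short-term pools (5.49% in Malign_2 and 4.63% in Malign_3). The gene higher in T127 was Areg in both, at 113 and 281 CPM in Malign_0 and Malign_1 against 0.978 CPM in Malign_2 and 58.5 CPM in Malign_3 (9.93 CPM without the 13 cells) in the long-term pools. Wnt4 was at 70.2 CPM in Malign_2 against 1.75 CPM in Malign_0. Ccnd1, cyclin D1, was at 2614 CPM in Malign_3 and 501 CPM in Malign_2. Of 19 other mammary transcription factors, 6 of 14 were higher in T22 in the long-term pools and 8 of 14 in the short-term experiments (11.3% and 11.9% of all genes). The 1 of 14 higher in T127 in each (7.25% and 8.69% of all genes) and the 1 of 15 and 1 of 14 higher in Malign_3 than in Malign_2 (3.95% and 4.63%) were near the shares of all genes. Nfib, linked with milk gene control, was at 1109 and 468 CPM in Malign_2 and Malign_3 against 58.6 and 59.7 CPM in Malign_0 and Malign_1.

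**Figure D5:**
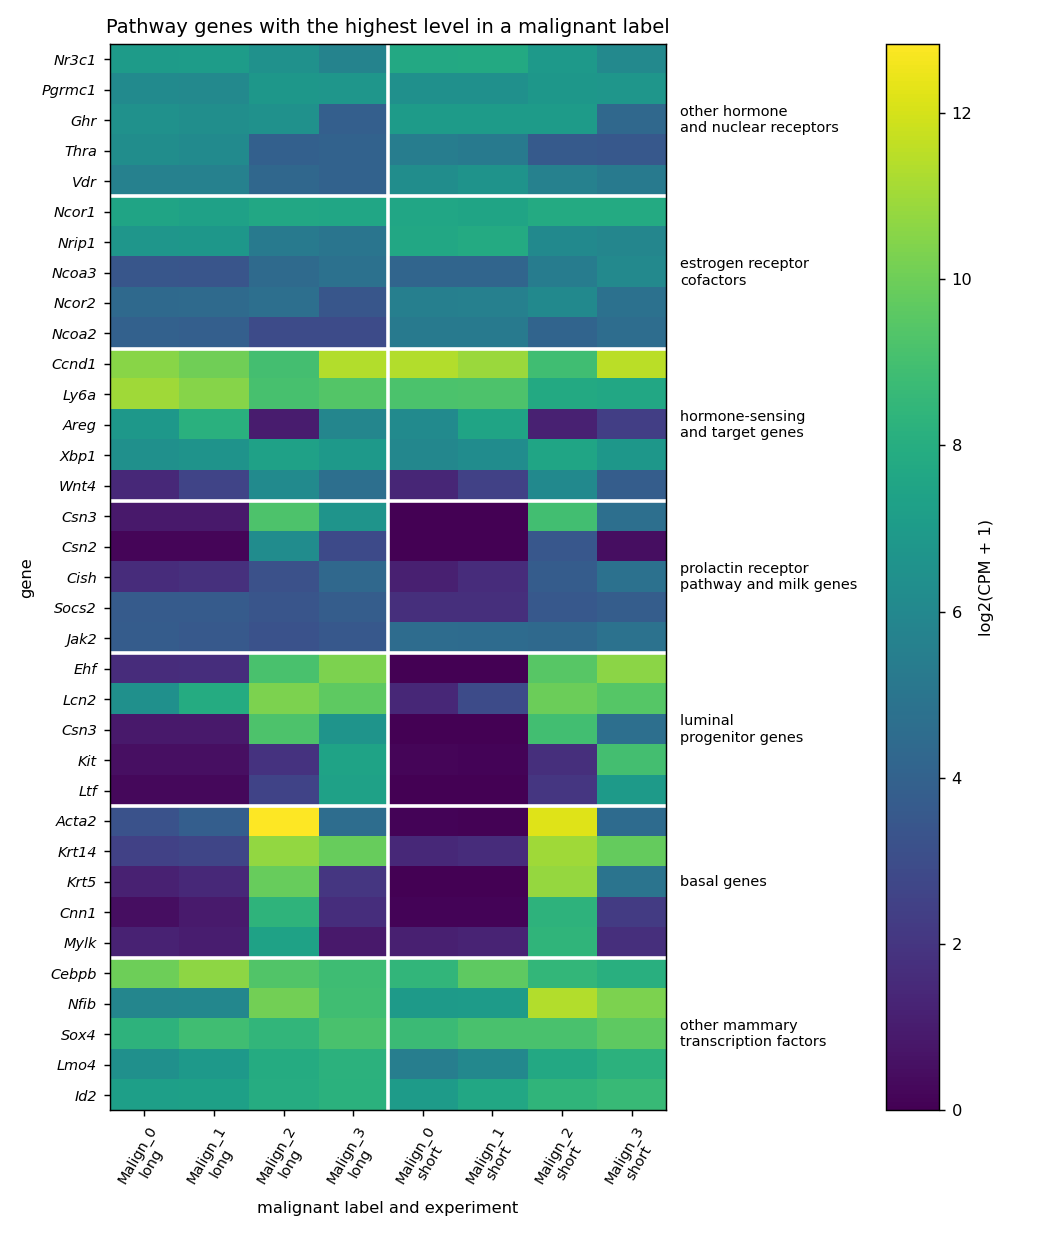
Level as log2(CPM + 1) of the 5 genes with the highest level from each of the 7 lists, in the 4 malignant labels of the long-term (left) and short-term (right) experiments. Acta2, Krt5, Cnn1 and Mylk stood high in Malign_2 alone, Kit and Ltf in Malign_3 alone, and Areg and Thra were higher in Malign_0 and Malign_1 than in Malign_2.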

How the data were processed

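Single cells of hashtagged tumors were captured with the 10x Genomics Chromium 3′ v3.1 chemistry. The submitters' processing notes name Cell Ranger 6.0.0 and GRCm38. According to the methods, introns were counted, cells with few genes or many mitochondrial reads were dropped, doublets were removed with Scrublet and malignant cells were called from inferred copy number. The authors deposited raw UMI counts of 32285 genes per cell for 16 pools, a normalized table (not used here) and a cluster name per cell. GEO's organism field does not name the mouse, but the genes, build and host do.

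Counts were summed here per cluster name and experiment after keeping the deepest copy of barcodes shared by long-term pools. Poisson, Clopper-Pearson and conditional binomial 95% intervals are exact and cover counting error only. The 4-fold rule used a pseudocount of 1 CPM and genes with 5 CPM in either side, and was tested on simulated sums. Named genes are the 9 members, up to 5 genes of the highest level per list, and the 3 most alike. A gene of a list is not reported here and was left out of its counts. Members and lists were chosen with earlier results of these data known. No p-value was computed, since no cell could be tied to a tumor. Pools are captures that may share tumors. Doublets were not called again. Alternatives were a pseudocount of 10 CPM, each pool left out in turn, all copies of barcodes, long-term pools 1, 2 and 3 left out, at least 1000 genes per cell, without the top 5% of cells by UMIs, mean CPM of single cells, median-of-ratios size factors, other denominators, thinning to 3000 UMIs and the mean of both labels of a model. Leaving out the cells with 3 or more receptor genes and log2 ratios within pools were added after the data were seen. Python 3.11.15, numpy 2.4.6 and scipy 1.17.1 were used.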

Additional observations from a re-analysis of the deposited data

Results flagged for a closer look

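Of 36 sets of pool levels with 1 CPM or more, 3 held a pool far from the others of its group by Dixon's criterion, which chance alone meets in about 1 of 20 groups. Gata3 in Malign_3 was at 42.4 CPM in long-term pool 4, the highest of the 8 pools, and at 4.82 CPM there without the 5 cells that held 3 or more of Esr1, Pgr, Prlr and Foxa1. Prlr in Malign_3 was at 9.17 CPM in short-term T22 pool 1, against 0.887 to 1.74 CPM in the other 3 pools. Sox9 in Malign_3 was at 808 CPM in short-term T22 pool 4, against 508 to 557 CPM in the other 3 pools.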

How the results depend on the processing

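Under a pseudocount of 10 CPM, the number of genes 4-fold or more apart fell from 5 to 2 (long-term) and from 4 to 2 (short-term) between the T22 and T127 labels, and from 2 to 1 in both experiments between Malign_2 and Malign_3. The calls lost there were those of Prlr, Gata3 and Elf5, at log2 ratios of 1.51, -1.66 and 0.63 between the models in the long-term pools, since the larger pseudocount shrinks low levels by construction. With each pool left out in turn, the counts were 5 to 5 and 4 to 4 between the models, 2 to 2 and 2 to 3 between Malign_2 and Malign_3 and 0 to 0 between Malign_1 and Malign_0. The third call of short-term Malign_2 against Malign_3 came from Prlr without pool 1 (log2 ratio 2.70) or Gata3 without pool 4 (2.02, against 1.76 with all pools). The alternatives gave 909 log2 ratios, for called and uncalled genes. None of the 13 called ratios changed direction in them, 70 of the 909 moved by more than the spread of the pools, 7 calls were lost and 7 gained. Uncalled ratios did change direction. Without the cells chosen by receptor genes, long-term Malign_2 against Malign_3 went from -0.50 to 1.12 for Gata3 and from -0.12 to 2.00 for Prlr. The share of all genes 4-fold apart between the models in the long-term pools was 17.2% with a minimum of 20 CPM and 9.97% with none. With a replicate block, that is the mean of the log2 ratios within pools for labels of the same experiment (chosen after the data were seen), the counts were 5 between the models in the long-term pools, 2 and 3 between Malign_2 and Malign_3 and 0 and 0 between Malign_1 and Malign_0, the added gene being Prlr (2.16). The short-term models lay in different pools and have no such value. No share of all genes is given for the larger pseudocount, the pools left out or the replicate block. Those counts therefore describe the 9 genes only, and nothing is read from them against other genes. Levels under about 1 CPM rest on few UMIs, and in the short-term Malign_3 label 218 cells limit every value.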
